A study of Mus musculus with 8 samples.

Results

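The genes described are 9 ligands that act on macrophages or their monocyte precursors, or that signal in the same inflamed tissue: the growth factors Csf1 and Il34, the CC chemokines Ccl2, Ccl7 and Ccl12, the chemokines Cx3cl1, Cxcl12 and Cxcl14, and the cytokine Il33. They were taken by symbol from a table of 24341 genes, and all 9 were present. The levels come from RNA sequencing of mouse heart ventricles in 8 libraries. The 4 cre_positive libraries come from mice homozygous for floxed Med13 and Med13l, genes for alternative subunits of the Mediator kinase module, that carry a Cre recombinase directed to cardiomyocytes. The 4 cre_negative libraries come from mice with the same floxed alleles and no Cre. All mice were males aged 12 weeks that had been fed tamoxifen chow, with 4 weeks since tamoxifen. The comparison asks how the transcripts of the ventricle differ when cardiomyocytes are meant to lose both genes. Which Cre line was used is not given by the labels, and an effect of Cre itself cannot be told apart from an effect of the deletion, since the cre_negative mice lack Cre. The labels do not say whether each library is a separate mouse, so p-values measure the spread between these libraries.

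Tissue macrophages need signals through the receptor tyrosine kinase CSF1R to survive and divide, and CSF1 and IL-34 are its ligands. Chemokines are small secreted proteins that draw cells along a gradient: CCL2, CCL7 and CCL12 act on CCR2 and bring monocytes out of the blood, CX3CL1 sits on the cell surface until proteases shed it and acts on CX3CR1, and CXCL12 signals through CXCR4 and is cleared by the scavenging receptor ACKR3. CXCL14 is a chemokine whose receptor is less settled. IL-33 is a nuclear cytokine released by damaged cells and read by the receptor ST2, the product of Il1rl1. In the heart most of these ligands are known from stromal, endothelial and immune cells, while the labelled Cre acts in cardiomyocytes.

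Levels are in FPKM, the fragments of a gene scaled to transcript length and to library size, as deposited. In units of 1e+06 fragments, estimated depth ran from 4.48 to 23.6 in cre_positive libraries and from 5.47 to 15.2 in cre_negative libraries. Med13 averaged 8.13 ± 0.554 FPKM in cre_positive and 12.0 ± 2.23 FPKM in cre_negative ventricles, and Med13l 2.52 ± 0.113 and 4.92 ± 0.814 FPKM in the same order (SD, n = 4 each), with no overlap for either gene. Med13 was called lower (limma adjusted p = 0.00612), but not with libraries scaled to the same sum (log2 change -0.21, adjusted p = 0.188) or in the 5 libraries with high Rn45s described next (-0.51, adjusted p = 0.0529). By their level of Rn45s, the precursor of ribosomal RNA, the libraries fell into 5 with 396 to 1053 FPKM (cre_positive 1 and 2, cre_negative 1, 3 and 4) and 3 with 10.3 to 16.0 FPKM (cre_positive 3 and 4, cre_negative 2), and each change was also computed within both sets. The 3 libraries with low Rn45s had the highest estimated depths. Cardiomyocyte markers, all 9 in the table, summed to 25313 to 26820 FPKM in cre_positive and 56833 to 60136 FPKM in cre_negative libraries. The marker Ttn has no value in cre_positive 3 and 4, so the sums of these libraries leave it out.

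Of the 9 ligands, 1 rose (Cx3cl1) and 4 fell (Csf1, Ccl12, Cxcl12 and Cxcl14) in cre_positive ventricles. Calls are those of limma with an adjusted p below 0.05, over all 11688 genes whose mean reached 1 FPKM. The called ligands are 55.6% of the 9, beside 39.2% of all genes tested; the share called higher was 11.1% beside 19.7%, and the share called lower 44.4% beside 19.4%. The median log2 change of the 9 was -0.47, beside -0.01 for all genes tested, on the log2(FPKM + 1) scale, which understates changes of low genes. Values of the groups did not overlap for 4 of the 9 (Csf1, Cx3cl1, Cxcl12 and Cxcl14), or 44.4%, beside 38.0% of all genes tested; 1 of the 4 lay higher (19.3% of all genes) and 3 lower (18.7%). With 9 genes, these shares rest on few calls. In whole ventricle, fewer cells of a type and less RNA per cell cannot be told apart.

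**Figure D1:**
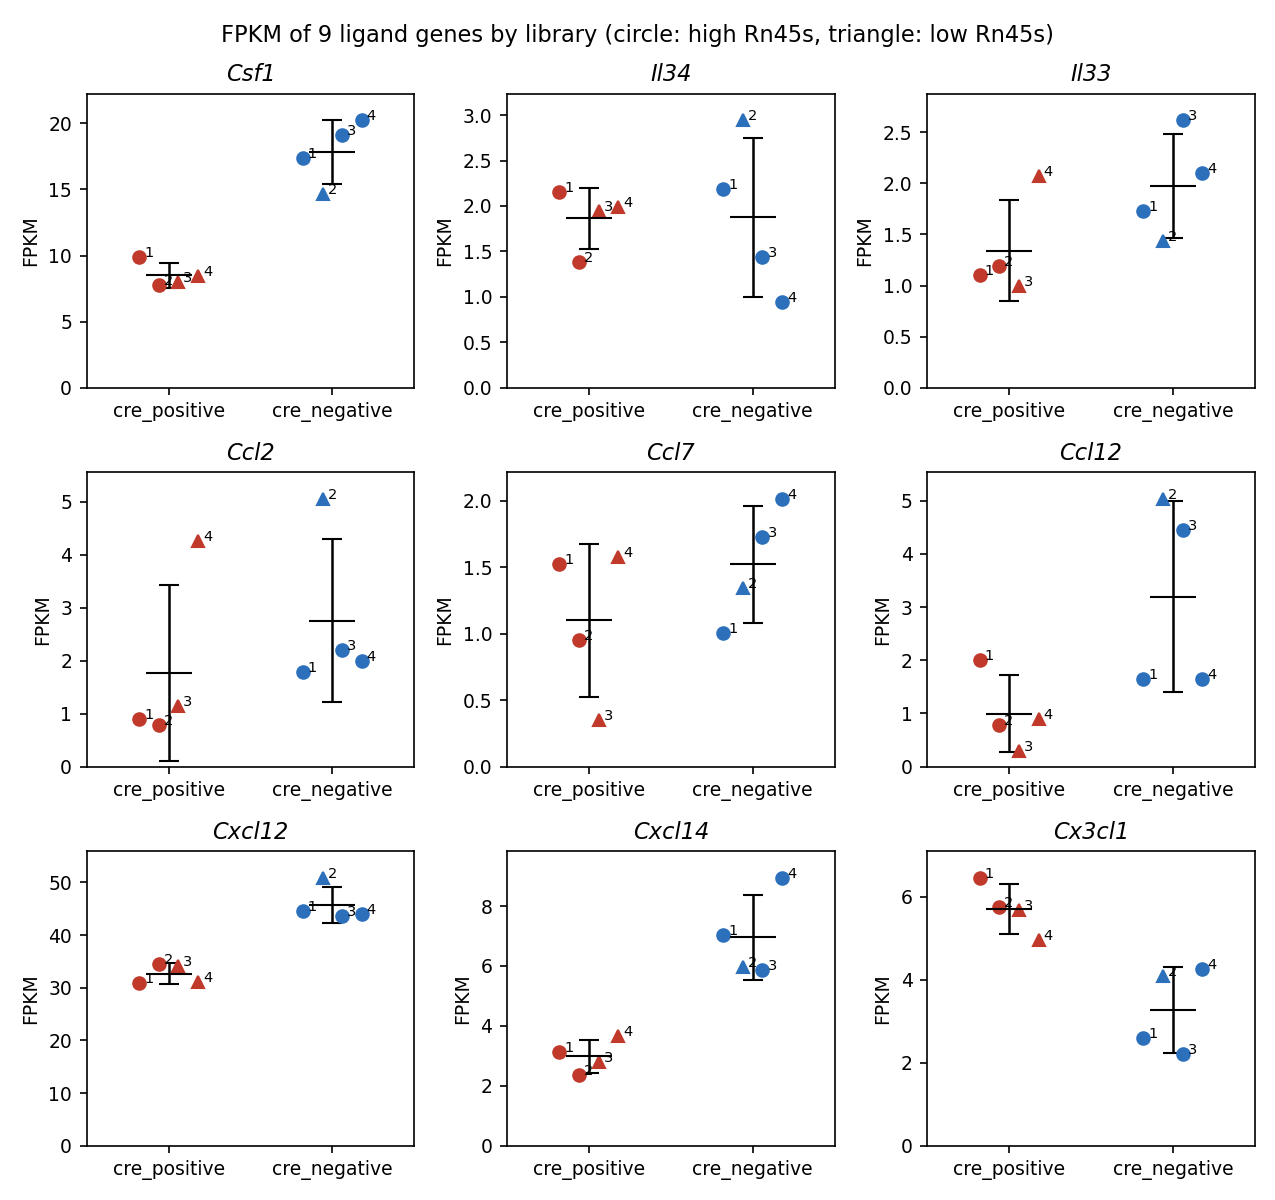
FPKM of the 9 ligands in each library (numbered points; circles have high and triangles low Rn45s), with the 4 cre_positive libraries left of the 4 cre_negative libraries, the group mean as a line and the SD as a bar, and a separate linear axis from 0 for each gene. The points of the groups do not overlap for Csf1, Cx3cl1, Cxcl12 and Cxcl14, and they overlap for the other 5 genes.

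The promoters of the 4 ligands that fell are shown as the sequence context of these calls. They are the 250 bases before the RefSeq gene start in GRCm38.p6, written 5′ to 3′ on the gene's strand: Csf1 on the minus strand (chr3:107760470-107760719), Cxcl12 on the plus strand (chr6:117168285-117168534), Ccl12 on the plus strand (chr11:82101595-82101844) and Cxcl14 on the minus strand (chr13:56296552-56296801). Capitals mark matches, on either strand, to 3 short motifs chosen after the sequences were seen: the TATA box TATAAA, the GC box GGGCGG and the AP-1 motif TGANTCA.
Csf1: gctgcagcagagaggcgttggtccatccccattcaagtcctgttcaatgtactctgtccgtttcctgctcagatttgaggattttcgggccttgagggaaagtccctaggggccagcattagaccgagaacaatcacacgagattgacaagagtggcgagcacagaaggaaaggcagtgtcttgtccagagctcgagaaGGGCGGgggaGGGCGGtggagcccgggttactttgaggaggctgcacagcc
Cxcl12: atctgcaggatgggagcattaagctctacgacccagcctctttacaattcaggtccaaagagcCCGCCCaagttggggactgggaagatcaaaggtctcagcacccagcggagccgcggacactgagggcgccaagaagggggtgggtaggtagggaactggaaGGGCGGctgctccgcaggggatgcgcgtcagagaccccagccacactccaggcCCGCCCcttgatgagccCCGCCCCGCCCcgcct
Ccl12: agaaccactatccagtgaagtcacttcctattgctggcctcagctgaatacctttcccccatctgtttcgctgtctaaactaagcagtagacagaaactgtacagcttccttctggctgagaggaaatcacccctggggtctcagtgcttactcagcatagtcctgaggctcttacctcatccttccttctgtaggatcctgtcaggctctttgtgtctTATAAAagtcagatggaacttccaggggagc
Cxcl14: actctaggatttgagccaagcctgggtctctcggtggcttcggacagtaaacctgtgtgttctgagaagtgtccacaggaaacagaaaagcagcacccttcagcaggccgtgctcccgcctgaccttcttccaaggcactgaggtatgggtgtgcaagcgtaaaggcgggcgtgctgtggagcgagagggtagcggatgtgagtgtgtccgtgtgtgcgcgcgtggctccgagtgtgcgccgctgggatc

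These 4 windows did not share 1 layout. The Csf1 window holds 2 GC boxes, which begin 51 and 41 bases before the start, and no TATA box. The Cxcl12 window holds 5 GC boxes, the last pair of which overlap, and no TATA box. The Ccl12 window holds a TATA box that begins 31 bases before the start, and the Cxcl14 window holds none of the 3 motifs. Over 32851 promoters of the same length, a TATA box was found in 12.4%, a GC box in 32.7% and an AP-1 match in 6.75%. GC content was 56.4% for Csf1, 64.4% for Cxcl12, 48.4% for Ccl12 and 59.6% for Cxcl14, beside a median of 52.4%. Of the 9 ligands, 6 matched the promoter table. The Cx3cl1 window overlaps an annotated transcript and is not printed.

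Of the growth factors that act on CSF1R, Csf1 fell and Il34 did not pass the test; the difference between their changes was not tested. Csf1 (chr3:107741048-107760469, mm10) is the main growth factor of macrophages. It stood at 9.86, 7.75, 8.01 and 8.45 FPKM in cre_positive libraries 1 to 4, against 17.4, 14.6, 19.1 and 20.2 FPKM in cre_negative libraries 1 to 4. Every cre_positive library lay below every cre_negative library. The cre_positive mean of 8.52 ± 0.941 FPKM was 0.477 of the cre_negative mean of 17.8 ± 2.45 FPKM (SD, n = 4 each). The log2 change was -0.98 (SE 0.11, 95% interval -1.23 to -0.73, limma adjusted p = 7.00e-05), and the exact two-sided permutation p was 0.0286, the smallest that 4 against 4 libraries allow. It was -1.03 among the 5 libraries with high Rn45s and -0.76 among the 3 with low Rn45s, a set with 1 cre_negative library.

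Il34, which encodes the second ligand of CSF1R, was low in both groups. It stood at 2.16, 1.38, 1.94 and 1.99 FPKM in cre_positive libraries, against 2.18, 2.94, 1.44 and 0.941 FPKM in cre_negative libraries. The groups overlapped, and the cre_negative libraries spread more widely than the cre_positive ones. The means were 1.87 ± 0.336 and 1.88 ± 0.876 FPKM in cre_positive and cre_negative ventricles (SD, n = 4 each), with a log2 change of 0.04 (SE 0.20, 95% interval -0.41 to 0.49, limma adjusted p = 0.900). The log2 change of Csf1, -0.98, lies outside this interval. The log2(FPKM + 1) scale understates changes of low genes such as Il34, so the 2 changes are not directly comparable. The log2 change was 0.15 with high Rn45s and -0.41 with low Rn45s. The gene (chr8:110741829-110805924) overlaps 2 antisense genes in GENCODE, Gm15894 and Gm15895, and without knowledge of whether strand was used, reads of Il34 and of these genes cannot be told apart.

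Their receptor Csf1r also fell. It stood at 11.7, 10.6, 11.4 and 15.1 FPKM in cre_positive libraries, against 16.0, 17.7, 15.9 and 18.6 FPKM in cre_negative libraries. No cre_positive library reached the lowest cre_negative one, though cre_positive 4 came close. The log2 change was -0.46 (SE 0.11, limma adjusted p = 0.00714), and with each library scaled to the same sum it was -0.16 and no longer called (adjusted p = 0.251). It was -0.41 with low Rn45s. The ratio of Csf1 to Csf1r was 0.708 ± 0.116 in cre_positive and 1.05 ± 0.160 in cre_negative libraries (SD, n = 4 each; exact two-sided permutation p = 0.0571, 0.171 after Benjamini-Hochberg adjustment over 9 ligand and receptor pairs).

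Among markers of macrophages and monocytes, 11 fell and 0 rose. Over all genes tested, 19.4% fell and 19.7% rose. Of 24 listed, 22 were tested, with a median log2 change of -0.49; with libraries scaled to the same sum 0 were higher and 7 lower, with a median of -0.23. None was at the fill value of 0.01 in all libraries. Their summed level was 283 to 422 FPKM in cre_positive and 422 to 581 FPKM in cre_negative libraries. F13a1, a transglutaminase of resident macrophages, averaged 13.8 ± 1.96 FPKM in cre_positive and 26.7 ± 4.49 FPKM in cre_negative ventricles (SD, n = 4 each; limma adjusted p = 4.57e-04). Folr2, a folate receptor of the same cells, averaged 5.95 ± 0.975 and 11.4 ± 1.71 FPKM (adjusted p = 4.96e-04). The pan-macrophage marker Cd68 averaged 7.54 ± 1.39 FPKM in cre_positive and 8.11 ± 1.73 FPKM in cre_negative ventricles (adjusted p = 0.682). The part of the macrophage markers in the ligand levels was not tested.

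The CC chemokines of monocyte recruitment lay at low levels, and Ccl2 and Ccl12 varied more between libraries of a group than any other ligand. All 3 lie in 1 cluster on chromosome 11, in the order Ccl2, Ccl7, Ccl11, Ccl12, Ccl8 and Ccl1 over 144 kb, and the longest identical run between the transcripts of any pair among the first 5 is 23 bases, between Ccl2 and Ccl7. The estimated fragments behind a value ran from 4.4 to 104.9 for Ccl2, from 5.5 to 28.4 for Ccl7 and from 3.6 to 41 for Ccl12, whose longest transcript has 537 bases. Counting error is therefore large for the low values of all 3. It is smaller for Ccl2 in cre_positive 4 and cre_negative 2, which rest on an estimated 104.9 and 84 fragments. The lowest value of any of the 9 ligands was 0.289 FPKM, for Ccl12 in cre_positive 3, and 0 of the 9 were at the fill value of 0.01 in any library.

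Ccl2 (chr11:82035577-82037452), the best known CCR2 ligand, stood at 0.905, 0.783, 1.15 and 4.26 FPKM in cre_positive libraries, against 1.79, 5.05, 2.2 and 1.99 FPKM in cre_negative libraries. In each group 1 library stood far above the other 3: cre_positive 4 at 3.70 times the next, and cre_negative 2 at 2.30 times the next. The remaining cre_positive libraries lay below the remaining cre_negative ones. The means were 1.77 ± 1.66 FPKM in cre_positive and 2.76 ± 1.54 FPKM in cre_negative ventricles (SD, n = 4 each), and the log2 change of -0.52 did not pass the test (SE 0.35, 95% interval -1.30 to 0.26, limma adjusted p = 0.277). It was -0.70 with high Rn45s (adjusted p = 0.0111), a set that holds neither cre_positive 4 nor cre_negative 2. It was -0.85 with low Rn45s, a set with 1 cre_negative library. With a term for the Rn45s set it was -0.75 (adjusted p = 0.0324). The log2 change was -0.88 without cre_positive 4 (adjusted p = 0.0246) and -0.62 without both high libraries (adjusted p = 0.00703). Without cre_negative 2 alone it was -0.26 and did not pass (adjusted p = 0.561). Among the 8 fits that left out 1 library, only that without cre_positive 4 gave a call. Leaving out both was chosen after the data were seen. The gene overlaps Gm17268 on the opposite strand.

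The libraries with high Ccl2 were also the highest of their groups for many macrophage markers. Of the 24 listed, 13 were highest of the cre_positive libraries in cre_positive 4 and 14 were highest of the cre_negative libraries in cre_negative 2, with 9 in both counts, among them Tyrobp, Cd74 and Adgre1. The share of all genes tested that were highest in these libraries was not computed. Both libraries have low Rn45s and high estimated depth, and cre_negative 2 is the only cre_negative library with low Rn45s. Ccr2, the receptor, stood at 2.25, 0.736, 0.736 and 6.51 FPKM in cre_positive libraries, against 1.67, 1.62, 2.2 and 2.05 FPKM in cre_negative libraries, so it was highest in cre_positive 4. The neutrophil gene S100a8 stood at 1.55, 2.41, 0.901 and 0.465 FPKM in cre_positive libraries, against 1.53, 32.0, 1.87 and 2.55 FPKM in cre_negative libraries, so it was highest in cre_negative 2. The 6 neutrophil markers summed to 2.00 to 5.65 FPKM in cre_positive libraries, against 3.09 to 75.9 FPKM in cre_negative libraries; 2 were tested, and neither was called. Neither Ccr2 nor S100a8 was high in both libraries with high Ccl2. Ccr2 was lowest of the cre_negative libraries in cre_negative 2, and S100a8 lowest of the cre_positive libraries in cre_positive 4. The part of these genes in the Ccl2 values was not tested.

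**Figure D2:**
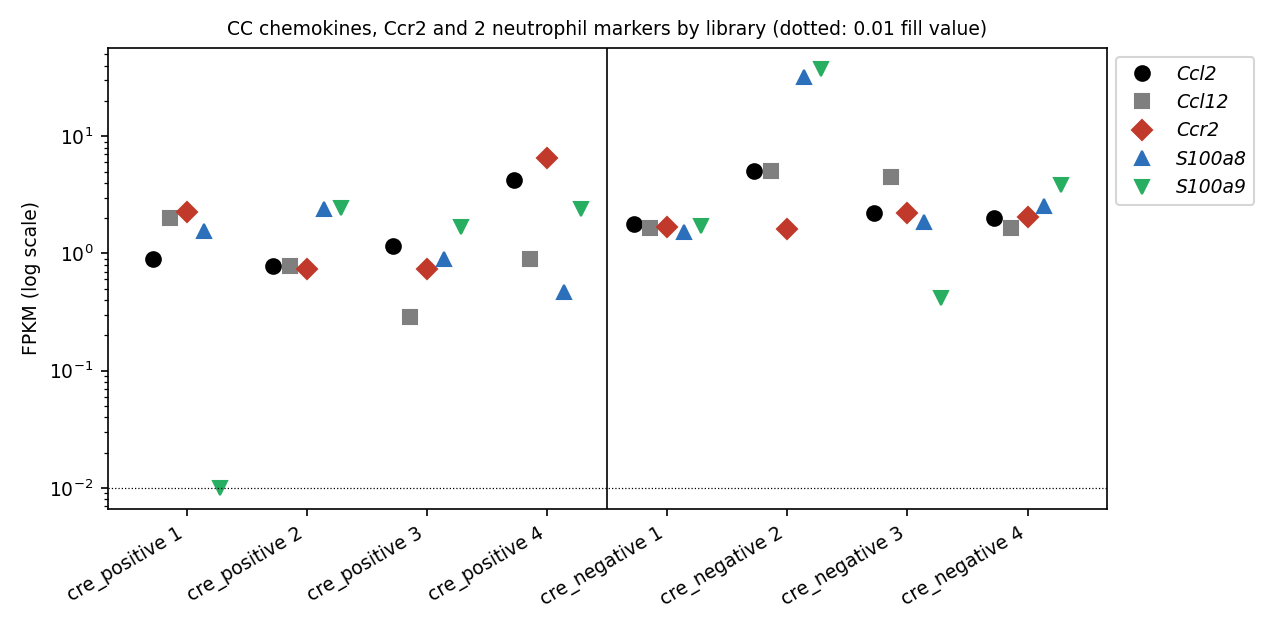
FPKM of Ccl2, Ccl12, Ccr2 and the neutrophil markers S100a8 and S100a9 in each library on a log axis, cre_positive on the left and cre_negative on the right, each point 1 library, with the fill value of 0.01 dotted. Ccr2 peaks in cre_positive 4 at 6.51 FPKM and S100a8 in cre_negative 2 at 32.0 FPKM, the libraries with the highest Ccl2 of their groups. Neither gene is high in both. Ccr2 is lowest of the cre_negative libraries in cre_negative 2 (1.62 FPKM), and S100a8 lowest of the cre_positive libraries in cre_positive 4 (0.465 FPKM).

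Ccl12 (chr11:82101845-82103399), another CCR2 ligand of mice, stood at 2.00, 0.780, 0.289 and 0.899 FPKM in cre_positive libraries, against 1.65, 5.03, 4.46 and 1.65 FPKM in cre_negative libraries. The groups overlapped, since cre_positive 1 lay above cre_negative 1 and 4. The means were 0.993 ± 0.724 FPKM in cre_positive and 3.20 ± 1.80 FPKM in cre_negative ventricles (SD, n = 4 each). The log2 change was -1.04 (SE 0.32, 95% interval -1.76 to -0.31, limma adjusted p = 0.0277), with an exact two-sided permutation p of 0.0857. It was -0.54 with high Rn45s (adjusted p = 0.329) and -1.95 with low Rn45s. The call was lost without cre_positive 2, 3 or 4 or without cre_negative 2 or 3 (adjusted p of 0.0600 to 0.0816).

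Ccl7 (chr11:82045712-82047523), which acts on CCR2 and on other receptors, did not pass the test. It stood at 1.52, 0.949, 0.348 and 1.57 FPKM in cre_positive libraries, against 1.00, 1.34, 1.73 and 2.01 FPKM in cre_negative libraries. The groups overlapped over most of their range. The log2 change was -0.29 (SE 0.21, 95% interval -0.77 to 0.18, limma adjusted p = 0.312), and the group means were 1.10 ± 0.575 FPKM in cre_positive and 1.52 ± 0.441 FPKM in cre_negative ventricles (SD, n = 4 each). It was -0.20 with high Rn45s and -0.33 with low Rn45s.

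Cx3cl1 (chr8:94772180-94782426), the membrane-bound chemokine known as fractalkine, was the ligand that rose. It stood at 6.44, 5.74, 5.68 and 4.95 FPKM in cre_positive libraries, against 2.59, 4.08, 2.2 and 4.25 FPKM in cre_negative libraries. Each cre_positive library lay above each cre_negative one, with cre_negative 2 and 4 nearest. The means were 5.70 ± 0.612 FPKM in cre_positive and 3.28 ± 1.04 FPKM in cre_negative ventricles (SD, n = 4 each), and the log2 change was 0.68 (SE 0.16, 95% interval 0.31 to 1.04, limma adjusted p = 0.00796). It was 0.85 with high Rn45s and 0.31 with low Rn45s, a set with 1 cre_negative library. The Cx3cl1 call was lost without the filter on low values (limma adjusted p = 0.0518). Its receptor Cx3cr1, carried by monocytes and macrophages, averaged 2.06 ± 0.730 FPKM in cre_positive and 1.52 ± 0.340 FPKM in cre_negative ventricles, a log2 change of 0.26 that did not pass the test (limma adjusted p = 0.292).

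Of 10 genes listed as proteases or partners that shed or trim these ligands, 7 were tested, 2 were higher and 0 lower. Over all genes tested, 19.7% were higher and 19.4% lower. Without cre_positive 1, 3 or 4 or without cre_negative 2, 1 of the 7 was higher. Mmp2, a gelatinase that cleaves chemokines, averaged 48.8 ± 3.94 FPKM in cre_positive and 28.2 ± 4.16 FPKM in cre_negative ventricles (SD, n = 4 each), a log2 change of 0.78 (limma adjusted p = 2.57e-04). Adam10 and Adam17, the sheddases of CX3CL1, averaged 17.1 and 16.6 FPKM in cre_positive and 19.4 and 18.3 FPKM in cre_negative ventricles, and neither passed the test (limma adjusted p of 0.336 and 0.192).

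Cxcl12 (chr6:117168535-117181368), made by stromal and endothelial cells, was the most abundant of the ligands and the least variable. It stood at 30.8, 34.6, 34.1 and 31.1 FPKM in cre_positive libraries, against 44.6, 50.8, 43.6 and 44.1 FPKM in cre_negative libraries. The groups did not overlap, and the SD was 6.02% of the mean in cre_positive and 7.38% in cre_negative libraries. The means were 32.7 ± 1.97 FPKM in cre_positive and 45.8 ± 3.38 FPKM in cre_negative ventricles (SD, n = 4 each), a log2 change of -0.47 (SE 0.08, 95% interval -0.65 to -0.30, limma adjusted p = 8.66e-04). It was -0.42 with high Rn45s and -0.62 with low Rn45s. Under scaling of each library to a fixed sum, which moved the median of all genes by 0.27, the log2 change was -0.16 and the call was lost (adjusted p = 0.0699).

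Of the receptors of CXCL12, Ackr3 fell and Cxcr4 did not pass the test. Ackr3, the scavenging receptor, stood at 18.5, 17.3, 18.5 and 18.5 FPKM in cre_positive libraries, against 46.6, 57.0, 38.5 and 47.8 FPKM in cre_negative libraries. The groups lay far apart, with a log2 change of -1.32 (SE 0.11, limma adjusted p = 8.05e-06). Cxcr4, the signalling receptor, averaged 8.08 ± 0.602 FPKM in cre_positive and 8.37 ± 1.48 FPKM in cre_negative ventricles, a log2 change of -0.03 that did not pass the test (limma adjusted p = 0.850). The ratio of Cxcl12 to Ackr3 was 1.80 ± 0.159 in cre_positive and 0.976 ± 0.108 in cre_negative libraries, and that of Cxcl12 to Cxcr4 was 4.06 ± 0.383 and 5.59 ± 1.01 in the same order (SD, n = 4 each). Both ratios had no overlap between the groups, in opposite directions. The exact two-sided permutation p was 0.0286 each and 0.129 after adjustment over 9 pairs, so neither passed. That exact p is the smallest that 4 against 4 libraries allow. With only 2 of 9 pairs at it, neither ratio could have passed after adjustment, whatever its size. The other 6 ligand and receptor ratios had exact permutation p-values of 0.143 to 0.914.

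In all, 13 receptors, co-receptors and decoy receptors were listed and 8 tested. Of these 8, 0 were higher and 2 lower (Csf1r and Ackr3), with a median log2 change of 0.04. The shares of all genes tested were 19.7% higher and 19.4% lower. With libraries scaled to the same sum 1 receptor was higher (Sdc1) and 1 lower (Ackr3). Sdc1, a proteoglycan that binds IL-34, averaged 3.24 ± 0.327 FPKM in cre_positive and 3.02 ± 0.454 FPKM in cre_negative ventricles. Il1rap, the partner of ST2, averaged 2.30 ± 0.366 and 2.17 ± 0.195 FPKM, and the decoy receptor Ackr2 1.97 ± 0.633 and 1.57 ± 0.231 FPKM in the same order; none of these 3 passed the test. Below the level for testing were Ptprz1, Ccr1, Ccr3, Il1rl1 and Ackr1. Of these Ccr1 was highest, at 0.828 ± 0.299 FPKM in cre_positive and 1.06 ± 0.552 FPKM in cre_negative ventricles.

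**Figure D3:**
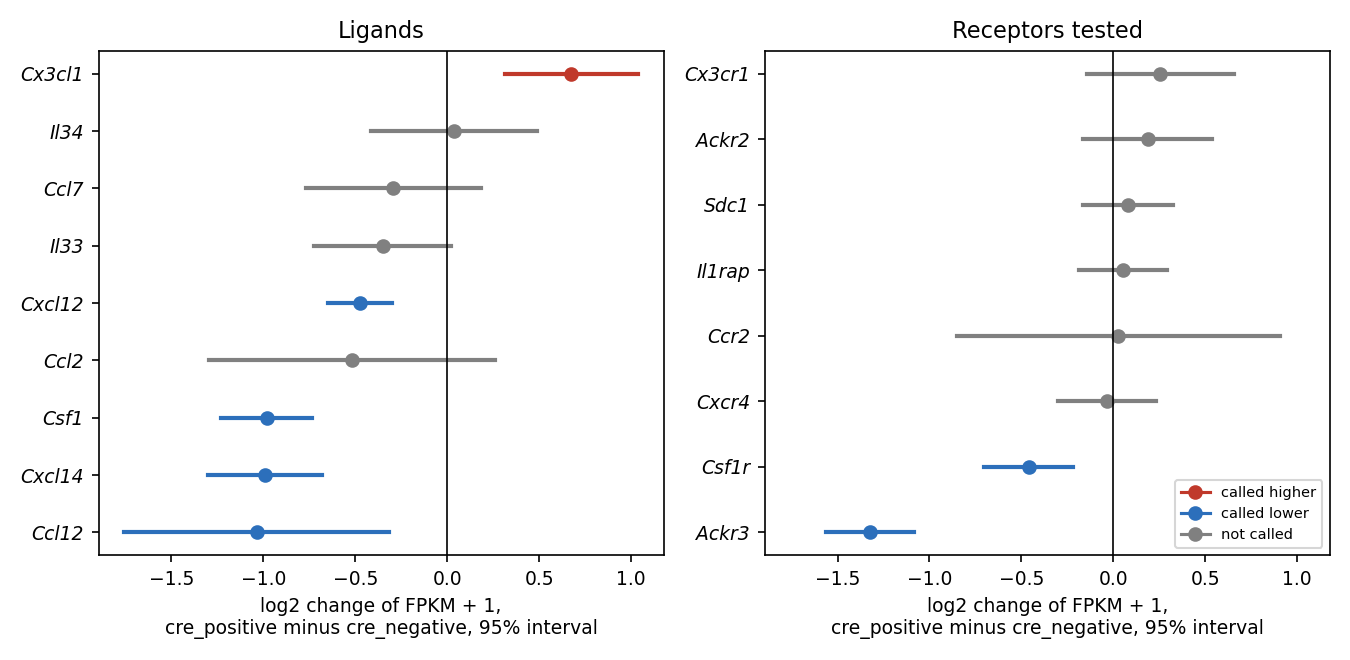
Difference in log2(FPKM + 1), cre_positive minus cre_negative, of the ligands and of their tested receptors (points), with the 95% interval of the limma fit as a bar. Cx3cl1 lies above 0 and Csf1, Ccl12, Cxcl12, Cxcl14, Csf1r and Ackr3 lie below it with intervals clear of 0.

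Cxcl14 (chr13:56288643-56296551), a chemokine of epithelia and stroma, was lower in cre_positive ventricles. It stood at 3.13, 2.37, 2.78 and 3.65 FPKM in cre_positive libraries, against 7.04, 5.98, 5.85 and 8.93 FPKM in cre_negative libraries. The groups did not overlap. The means were 2.98 ± 0.541 FPKM in cre_positive and 6.95 ± 1.42 FPKM in cre_negative ventricles (SD, n = 4 each), a log2 change of -0.99 (SE 0.14, 95% interval -1.30 to -0.68, limma adjusted p = 3.11e-04). It was -1.13 with high Rn45s and -0.74 with low Rn45s.

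Il33 (chr19:29925114-29960715) stood at 1.10, 1.19, 0.996 and 2.07 FPKM in cre_positive libraries, against 1.73, 1.44, 2.62 and 2.10 FPKM in cre_negative libraries. The groups overlapped through cre_positive 4, which lay above cre_negative 1 and 2. The means were 1.34 ± 0.494 FPKM in cre_positive and 1.97 ± 0.509 FPKM in cre_negative ventricles (SD, n = 4 each), and the log2 change of -0.35 did not pass the test (SE 0.17, 95% interval -0.72 to 0.02, limma adjusted p = 0.125). Without cre_positive 4 it was -0.49 and passed (adjusted p = 0.0295). It was -0.54 with high Rn45s, where it also passed (adjusted p = 0.0470), and 0.02 with low Rn45s.

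Ranked by mean FPKM, which is per transcript length, cre_positive ventricles had Cxcl12, Csf1, Cx3cl1 and Cxcl14 in that order with ranges that did not touch, and then Il34, Ccl2, Il33, Ccl7 and Ccl12 with ranges that overlapped. In cre_negative ventricles the order was Cxcl12, Csf1 and Cxcl14 with separate ranges, and then Cx3cl1, Ccl12, Ccl2, Il33, Il34 and Ccl7 with overlapping ranges. Cx3cl1 thus stood above Cxcl14 in cre_positive ventricles and below it in cre_negative ventricles. The 9 levels summed to 56.9 ± 1.80 FPKM in cre_positive and 85.2 ± 4.80 FPKM in cre_negative libraries (SD, n = 4 each). Cxcl12 made up 57.5% ± 5.20 of that sum in cre_positive and 53.7% ± 2.35 in cre_negative libraries. The FPKM of all genes, with missing cells left out, summed to 460601 to 478667 in cre_positive and 545102 to 612162 in cre_negative libraries. Summed levels of the groups therefore also differ for the table as a whole.

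Cx3cl1, with the largest rise, and Ccl12, with the largest fall, were set beside all genes tested. The genes with profiles over the 8 libraries most like Cx3cl1 were Tspyl4, Wdr75 and Mras, with a root mean square difference of z-scored values of 0.175, 0.195 and 0.20. Those most like Ccl12 were Zfp273, Prkab1 and Gucy1a3, with differences of 0.243, 0.262 and 0.304. These are the nearest of 11685 genes and are given as a description.

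Of 31 other chemokines, 12 were tested, 0 were higher and 5 lower (Ccl11, Pf4, Ccl24, Ccl9 and Cxcl9), with a median log2 change of -0.49. The shares of all genes tested were 19.7% higher and 19.4% lower. With libraries scaled to the same sum 3 were higher (Ccl21a, Ccl27a and Ccl8) and 5 lower, and without cre_negative 2, 2 were higher (Ccl21a and Ccl8) and 5 lower. Ccl11, the eosinophil chemokine that lies between Ccl7 and Ccl12 in the cluster, stood at 0.866, 0.786, 0.493 and 1.55 FPKM in cre_positive libraries, against 3.98, 3.04, 2.80 and 5.89 FPKM in cre_negative libraries (log2 change -1.35, limma adjusted p = 5.78e-04). Its groups did not overlap, while those of the flanking Ccl7 and Ccl12 did. The differences between the changes of these genes were not tested. Pf4, a platelet and macrophage chemokine, averaged 12.5 ± 2.33 FPKM in cre_positive and 27.2 ± 4.64 FPKM in cre_negative ventricles (SD, n = 4 each; limma adjusted p = 3.01e-04). Ccl8, the next gene of the cluster, averaged 2.23 ± 1.25 and 0.918 ± 0.503 FPKM and did not pass the test (adjusted p = 0.0673), but was called higher without cre_negative 2 (adjusted p = 0.0358) or cre_positive 3 (adjusted p = 0.0284).

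Markers of the cell types that could supply these ligands moved in different directions. Their counts stand beside 19.7% of all genes tested called higher and 19.4% called lower. Of 11 fibroblast markers 7 were higher and 1 (Dpt) lower (median log2 change 0.51), and their sum was 1487 to 1853 FPKM in cre_positive and 1098 to 1231 FPKM in cre_negative libraries. Postn, a matrix gene of activated fibroblasts, averaged 168 ± 31.8 FPKM in cre_positive and 33.4 ± 5.05 FPKM in cre_negative ventricles (SD, n = 4 each; limma adjusted p = 2.10e-06). Of 12 endothelial markers 0 were higher and 3 lower (Kdr, Cdh5 and Tek; median -0.20; Cdh5 was not called without cre_positive 2, 3 or 4 or cre_negative 3 or 4, with adjusted p of 0.0568 to 0.0792), with sums of 418 to 483 FPKM in cre_positive and 495 to 576 FPKM in cre_negative libraries. Without cre_positive 1, 5 were lower, and with libraries scaled to the same sum 2 were higher and 1 lower. Of 10 mural markers 4 were higher (Cnn1, Acta2, Cspg4 and Tagln) and 2 lower (Abcc9 and Kcnj8), with a median of 0.07 and sums of 999 to 1448 FPKM in cre_positive and 593 to 726 FPKM in cre_negative libraries. Of 9 cardiomyocyte markers 0 were higher and 7 lower, with a median of -1.57. Of 6 mesothelial markers 1 was tested and lower (Wt1), of 10 lymphoid and mast cell markers likewise 1 (Kit), and of 6 Schwann cell and neuron markers 0 were tested. The Wt1 call held without cre_positive 1 or cre_negative 4 and was lost without any other library (adjusted p of 0.0574 to 0.104), the Kit call was lost without cre_positive 2 or 3 (0.0533 and 0.0583), and the Kcnj8 call was lost without cre_positive 1 or 4 or cre_negative 1 or 2 (0.0583 to 0.0710). With libraries scaled to the same sum, 10 fibroblast markers were higher and 1 lower, 6 mural markers higher and 1 lower, and 1 cardiomyocyte marker higher and 7 lower. Under this scaling 5496 genes of the whole table were higher and 1008 lower. The part of these markers in the ligand levels was not tested.

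**Figure D4:**
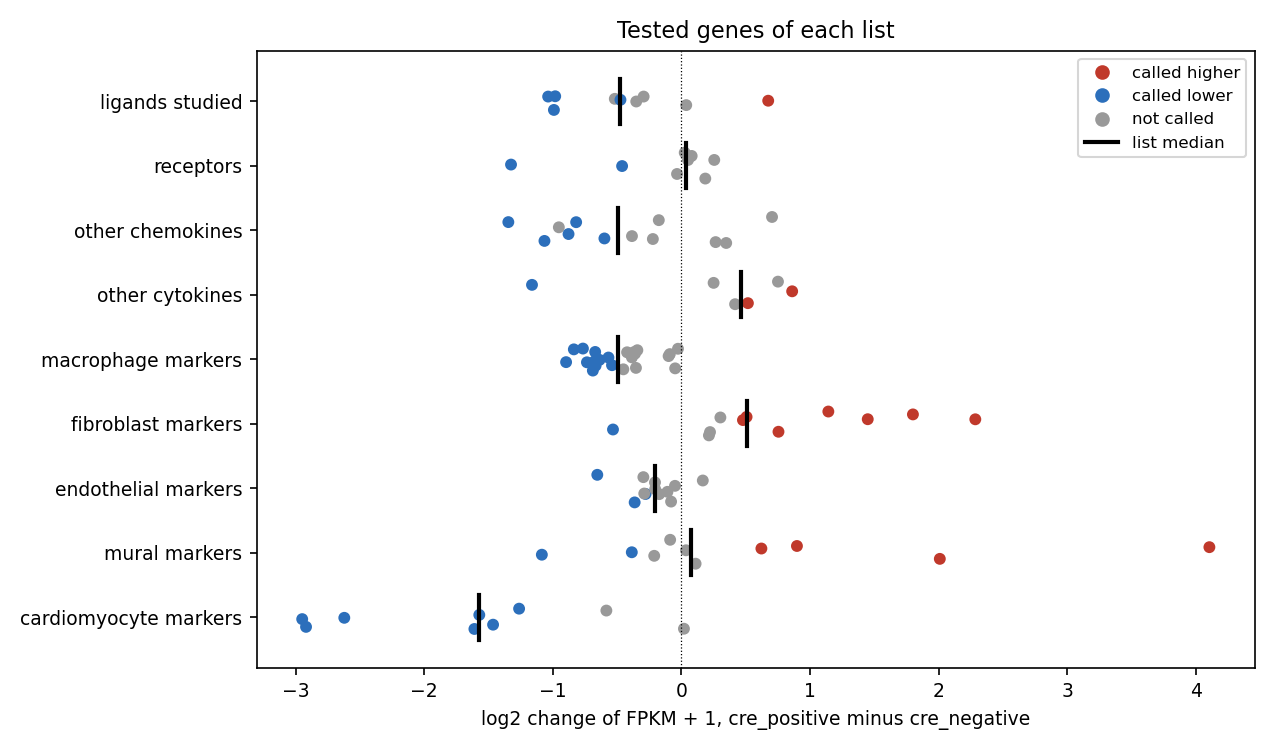
Log2 change, cre_positive minus cre_negative, of the tested genes of each list (points; red called higher, blue called lower, grey not called), for 9 of the lists, with the list median as a black bar. The ligands have a median of -0.47, the macrophage markers -0.49, the fibroblast markers 0.51 and the cardiomyocyte markers -1.57.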

How the data were processed

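RNA of 8 ventricular lysates (4 cre_positive, 4 cre_negative) was sequenced as stranded, ribosomal RNA-depleted total RNA, per the labels' protocols. The deposited values are FPKM, made by the authors with Bowtie2 2.2.6, Cufflinks and mouse build mm10, per the submitters' processing notes. Not given in the sources used here were aligner settings, annotation, strand use and filters. In each library 32.6% to 39.0% of genes stand at 0.01, taken here as a fill value for genes too low to estimate, and 6 cells hold a word and were treated as missing, among them Ttn in cre_positive 3 and 4. Depth is not in the table; it was estimated from the pile-up of FPKM times transcript length at 1 fragment, and covers counting error only. A count of 0 would allow up to 3 fragments.

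A limma 3.58.1 fit (R 4.3.3, eBayes with trend) to log2(FPKM + 1) covered the 11688 genes whose mean reached 1 FPKM, with Benjamini-Hochberg adjustment over all of them and a call at an adjusted p under 0.05. Single ratios were tested by exact two-sided permutation over 70 assignments in Python 3.11.15. The fit was tested on simulated data. Coordinates are mm10 with the start counted from 1; promoter sequences come from RefSeq (GRCm38.p6) and transcript lengths from GENCODE. The named genes are the 9 ligands, their listed receptors, and of each other list up to 4 called genes with the largest change or, with fewer than 2 calls, the 2 highest by mean; Cd68, Adam10, Adam17, Cxcl9, Ccl8 and other genes outside this rule, among them Dpt, Tagln, Kcnj8 and Il6, were named after their values were seen. The result of 1 listed gene is not reported here. The ligands and lists were chosen with earlier results of these data known. Alternatives were other scalings, pseudocounts and filters, the Rn45s sets, a replicate block, averaging cre_negative 1 and 2 as 1 sample, and leaving out libraries.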

Additional observations from a re-analysis of the deposited data

Results flagged for a closer look

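In 5 of 40 groups of 4 libraries (20 ligand and receptor genes with no value at the fill level), 1 library stood apart from the other 3; chance gives this in about 1 in 20 groups. Ccl2 was 4.26 FPKM in cre_positive 4, far above the other cre_positive libraries, and 5.05 FPKM in cre_negative 2, far above the other cre_negative libraries. Cxcl12 was 50.8 FPKM in cre_negative 2, above the other cre_negative libraries, which lay between 43.6 and 44.6 FPKM. Ptprz1, a phosphatase that binds IL-34, was 0.361 FPKM in cre_positive 1, above the other cre_positive libraries and too low to test. Ackr3 was 17.3 FPKM in cre_positive 2, just below the other cre_positive libraries, each at 18.5 FPKM.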

How the results depend on the processing

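The number of called ligands, 5 of 9, became 3 without the filter on low values, where Ccl12 and Cx3cl1 lost their calls. It was 2 with a filter at a mean of 5 FPKM, which leaves fewer ligands to test. It ran from 4 to 6 when 1 library was left out. The count over all genes, 4576, ran from 3724 to 4652 when 1 library was left out, and was 6504 under scaling to a fixed sum, of which 5496 were higher. Over the alternatives, 203 of 209 values of single ligands kept their direction and 183 also their side of the threshold. Reversed in sign were Il34, at -0.0502 with a term for the Rn45s set and -0.41 with low Rn45s alone, and between -0.13 and 0.21 when 1 library was left out, and Il33, at 0.0215 with low Rn45s alone. Csf1 was called under every alternative run. With cre_negative 1 and 2 averaged as 1 sample, the same 5 ligands were called, and 4316 genes over the whole table. Same-numbered libraries of the groups correlated at -0.16 to -0.08 in their deviations, so the numbers do not pair them; with a replicate block 3862 genes and 4 ligands were called, and Ccl12 was not (adjusted p = 0.0569). Depth limits the CC chemokines most.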

Other observations

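Among 20 other colony stimulating factors and inflammatory cytokines, 6 were tested, 2 were higher (Gas6 and Mif) and 1 lower (Il15), with a median log2 change of 0.47. Over all genes tested, 19.7% were higher and 19.4% lower. With libraries scaled to a fixed sum 4 were higher (Flt3l and Tgfb1 in addition) and 1 lower, with a median of 0.75. The median of all genes was then 0.27. Gas6, a ligand of the receptor MERTK with which macrophages take up dying cells, averaged 111 ± 6.54 FPKM in cre_positive and 60.5 ± 5.80 FPKM in cre_negative ventricles (SD, n = 4 each; limma adjusted p = 2.90e-05). Mif, macrophage migration inhibitory factor, averaged 212 ± 7.84 and 148 ± 19.6 FPKM (adjusted p = 0.00188). Il15, a cytokine that sustains NK and memory T cells, averaged 9.44 ± 2.88 and 21.6 ± 2.67 FPKM (adjusted p = 0.00123). Il6 was at 0.213, 0.775, 0.405 and 0.296 FPKM in cre_positive libraries and listed at 0.01 in all 4 cre_negative libraries. It was not tested, and its cre_positive values rest on an estimated 2.2 to 22.4 fragments. A count of 0 would allow up to 0.0844 FPKM in the deepest cre_negative library and 0.234 FPKM in the shallowest. The 0.213 FPKM of cre_positive 1 lies below that upper limit, so it cannot be told apart from the shallowest cre_negative library.

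Of 14 genes of NF-kB subunits and feedback targets, 13 were tested, 2 were higher and 2 lower, with a median log2 change of 0.13. The shares of all genes tested were 19.7% higher and 19.4% lower. With libraries scaled to a fixed sum 8 were higher and 0 lower, with a median of 0.41. Nfkb1, Nfkb2, Relb, Icam1, Vcam1 and Birc3 were then also called. This scaling moved the table as a whole: 5496 genes were higher and 1008 lower, with a median of 0.27. Tnip1, an inhibitor of NF-kB signalling, averaged 26.3 ± 1.67 FPKM in cre_positive and 14.6 ± 1.02 FPKM in cre_negative ventricles (SD, n = 4 each; limma adjusted p = 2.72e-05). Rela, the p65 subunit, averaged 13.5 ± 0.402 and 10.1 ± 0.626 FPKM (adjusted p = 0.00176). The inhibitors Nfkbib and Nfkbia were lower, at log2 changes of -0.42 and -0.28, and under scaling to a fixed sum they were at -0.13 and 0.02 and were not called. Nfkbia was also not called without cre_positive 2, 3 or 4 or without cre_negative 3 or 4 (adjusted p of 0.0689 to 0.125), and Nfkbib not without cre_negative 1 (adjusted p = 0.0565).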
